A study of Homo sapiens with 3 samples.

Results

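The small RNA content of parental cells was sequenced in 3 human cancer cell lines, C643 (thyroid cancer), Huh-7 (liver cancer) and ES-2 (ovarian cancer), with 1 library per line. Values given without a library name are for these lines in this order. The described class comprised the late-numbered miRNAs, whose number in the miRNA catalogue is 1000 or more, and the miR-548 family. 6 numbers (miR-1185, miR-1193, miR-1197, miR-1226, miR-1283 and miR-1323) were left out. The deposited tables listed 1719 mature names of this class among 2588 mature miRNAs. A name became a member when its value, summed over its loci, was at least 1 in any library, and 435 names did so, 25 of them among the 80 listed miR-548 names. The members were therefore chosen on their level in these same libraries, so that their levels are a description and carry no test. With 1 library per line there is also no replicate check, and no p-value is given.

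The deposited value is a read count multiplied by a library factor. A single read was worth 0.117 in C643, 0.282 in Huh-7 and 0.694 in ES-2, so that a value of 1 needed 9, 4 and 2 reads. The recovered totals were 8183100 reads in C643, 2173587 in Huh-7 and 1663181 in ES-2. Hepatocyte miRNAs (miR-122-5p, miR-885-5p, miR-192-5p and miR-194-5p) held 15.5% of the Huh-7 column, 0.0207% of the C643 column and 0.0132% of the ES-2 column. At 1 or more were 4 in Huh-7, 4 in C643 and 3 in ES-2, with the lowest at 3200, 1.41 and 0. C643 had its own table, possibly normalized apart from the other, so its levels are set beside the others only as a description. Shares of a library's own total do not depend on that factor.

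miRNAs are short RNAs cut from hairpin precursors by the Microprocessor and Dicer, and loaded into Argonaute proteins. Bases 2 to 8 from the 5′ end, the seed, pair with target mRNAs, so miRNAs with the same seed can address overlapping targets. Numbers in miRNA names follow the order of submission, and many high numbers came from deep sequencing surveys. The miR-548 family is primate-specific and arose from copies of a short mariner-like transposable element with inverted repeats that is present at many places in the genome. Some hairpins of the class coincide with snoRNA, tRNA or other small RNA genes, and some are short introns released by splicing.

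Sequences of the members that carried the highest levels or the largest differences are shown first, from RefSeq (GRCh38.p14). They are written 5′ to 3′ with the seed in capitals. In Huh-7 the most abundant pair was miR-1269a, from chr4:66276890-66276911 on the plus strand, and miR-1269b, from chr17:12917313-12917334 on the minus strand, which share a seed and differ by G13A counted from the 5′ end.
miR-1269a: cUGGACUGagccgugcuacugg
miR-1269b: cUGGACUGagccaugcuacugg
In ES-2 the class was marked by 4 miRNAs of the miR-3689 cluster on the minus strand of chromosome 9. Mature miR-3689a-5p (chr9:134849534-134849555), miR-3689b-5p (chr9:134850206-134850227) and miR-3689e (chr9:134850614-134850635) are identical, and miR-3689f (chr9:134850783-134850804) differs from them by A10G and G13C outside the seed.
miR-3689a-5p: uGUGAUAUcaugguuccuggga
miR-3689f: uGUGAUAUcgugcuuccuggga
In C643 the highest members were miR-3613-5p (chr13:49996465-49996486, minus strand), with a run of U after the seed, and the pair miR-1260b (chr11:96341447-96341465) and miR-1260a (chr14:77266231-77266248), both on the plus strand. The pair shares a seed, and miR-1260b differs from miR-1260a by U9A and in length (19 and 18 bases).
miR-3613-5p: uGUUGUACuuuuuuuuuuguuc
miR-1260a: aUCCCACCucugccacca
miR-1260b: aUCCCACCacugccaccau
The other members at 100 or more in all 3 libraries were miR-1180-3p (chr17:19344513-19344534, minus strand) and miR-1307-3p (chr10:103394301-103394322, minus strand).
miR-1180-3p: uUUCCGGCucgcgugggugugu
miR-1307-3p: aCUCGGCGuggcgucggucgug
The miR-548 members at 100 or more were miR-548x-3p, listed at a locus on chromosome 21 (chr21:18686100-18686119, minus strand) and at another on chromosome 13 (chr13:65966352-65966371, minus strand), and miR-548k (chr11:70283986-70284007, plus strand).
miR-548x-3p: uAAAAACUgcaauuacuuuc
miR-548k: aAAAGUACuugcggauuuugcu

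Huh-7 held the most members. 188 of the 435 members reached 1 in C643, 307 in Huh-7 and 199 in ES-2. The same limit was reached by 21.4%, 26.5% and 21.3% of all 2588 listed names. Among the 1719 listed names of the class, these counts were 10.9%, 17.9% and 11.6%, compared with 42.2%, 43.5% and 40.4% of the 869 remaining names. At this limit C643, with the most reads, had the fewest members, but a value of 1 needed 9 reads there and 2 in ES-2. In ES-2, 75 of the 199 detected members rested on 3 reads or fewer, whereas a value of 1 could not be reached with 3 reads in the other libraries. With more than 3 reads required instead, the counts over all 1719 listed names of the class were 212, 307 and 124. At a limit of 10 the counts were 51, 73 and 45, so that ES-2 had the fewest by both. Over any library, 34.7% of all listed names reached 1.

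86 members (19.8%) reached 1 in all 3 libraries, and this share was not taken over all names. 146 reached 1 only in Huh-7, 61 only in ES-2 and 55 only in C643. These were 33.6%, 14.0% and 12.6% of the members, beside 21.3%, 9.03% and 9.36% of all 897 names at 1 or more in any library. With the stricter demand of no read at all in both other libraries, 119 members were left for Huh-7, 41 for ES-2 and 44 for C643, most at low values. These were 27.4%, 9.43% and 10.1% of the members, beside 17.2%, 6.13% and 7.25% of the 897. Of these, 11 reached 10 for Huh-7, 3 for ES-2 and 1 for C643, out of 21, 5 and 3 such names among all miRNAs. The members were lower than the other detected miRNAs, and the part of their low level in these counts was not tested. The C643 member was miR-3929, with 140 reads and a value of 16.4 there, named after its values were seen.

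The class as a whole was scarce. Its 435 members held 0.366% of all reads in C643 (Wilson 95% confidence interval 0.362 to 0.370), 1.05% in Huh-7 (1.04 to 1.07) and 0.248% in ES-2 (0.240 to 0.255). The intervals do not overlap, but they cover counting error only, and the spread between cultures of a line is unknown. Without miR-1269a and miR-1269b the share in Huh-7 was 0.726%, still the highest of the 3. A few members carried most of each share. 9 members made up the first 50% of the class in C643, 6 in Huh-7 and 11 in ES-2, whereas 74, 92 and 81 were needed for 90%. The leading member was miR-3613-5p in C643, with 17.5% of the class, miR-1307-3p in ES-2, with 7.38%, and miR-1269a in Huh-7, with 25.1%.

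**Figure D1:**
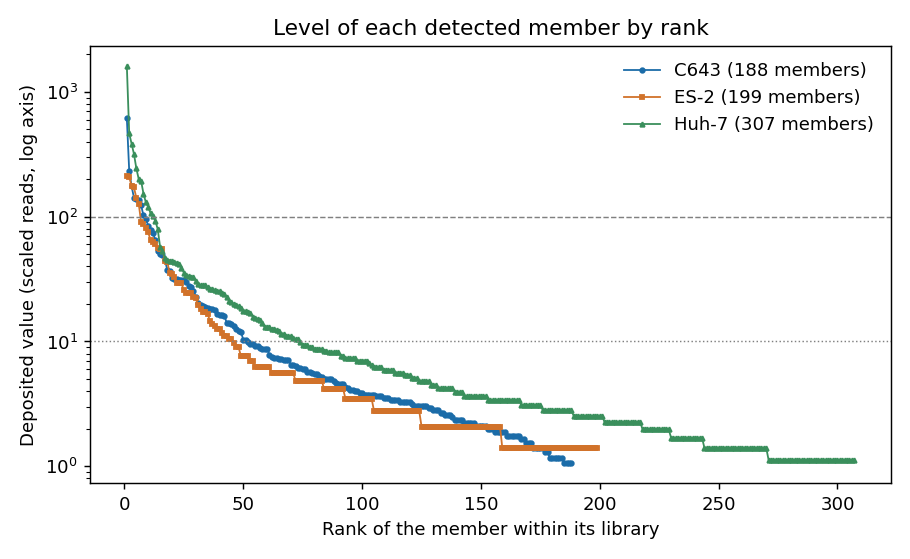
Level of each detected member (deposited value, log axis) against its rank in its library, for C643, Huh-7 and ES-2, 1 library each, with lines at 100 and 10. The curves start steeply and flatten, Huh-7 reaches 307 members, and ES-2 falls in visible steps because 1 read is worth 0.694 there.

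Most members were at low levels. The highest value over the libraries was between 1 and 10 for 337 members, between 10 and 100 for 81 and at 100 or more for 17. Below the limit of 1, 133 further names of the class had a read and 1151 had none. The 337 low members together held 12.3% of the class in C643, 10.8% in Huh-7 and 14.3% in ES-2. The median value of the members detected in a library was 4.16 in C643, 3.38 in Huh-7 and 3.47 in ES-2, compared with 45.5, 38.6 and 47.9 for the other detected miRNAs. Just inside the limit were miR-548au-3p at 1.06 (9 reads in C643) and miR-6780b-5p and miR-4783-3p at 1.13 (4 reads each in Huh-7). Just outside were miR-6823-5p and miR-4254 at 0.938 (8 reads each in C643) and miR-3648 at 0.845 (3 reads in Huh-7).

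The share of listed names that were detected varied with the number. Of 169 names numbered 1000 to 1999, 67 (39.6%) were members and 33 reached 10. Of 282 names in the 3000s 120 (42.6%) were members, and 10 of 28 in the 2000s (35.7%). The share was 19.0% of 506 names in the 4000s, 22.4% of 116 in the 5000s, 18.7% of 427 in the 6000s and 14.1% of 71 in the 7000s. In the 8000s 1 of 39 names (2.56%) was detected, miR-8072 with 2 reads in ES-2, named after its values were seen. No name in the 5000s and only 3 in the 6000s reached 10. The 1000s alone held 41.4% of the class in C643, 58.3% in Huh-7 and 37.4% in ES-2.

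**Figure D2:**
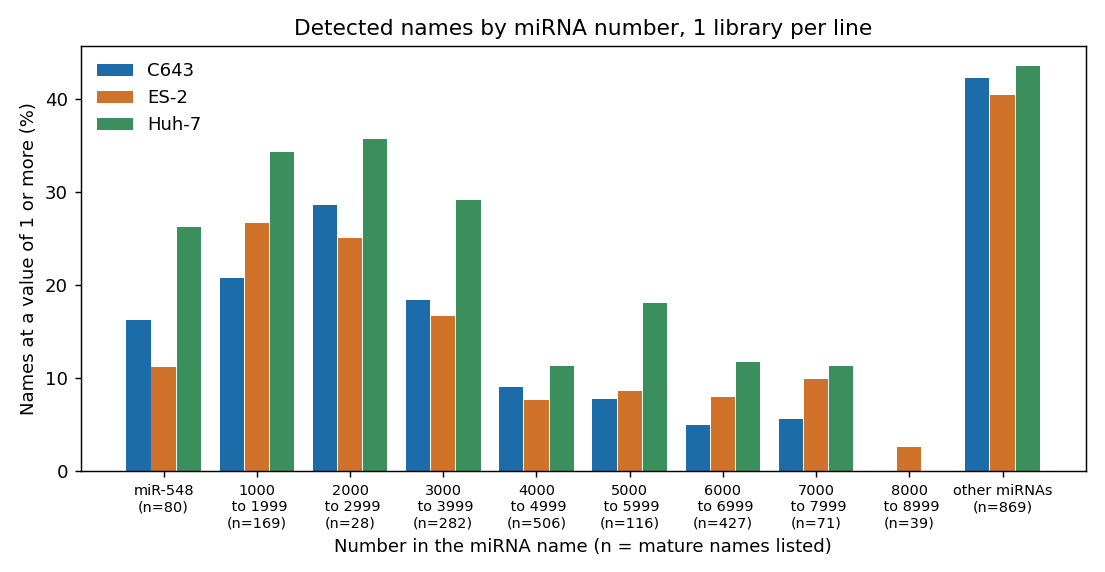
Percent of listed mature names at a value of 1 or more in each library, by the number in the name, with the number of listed names under each group and 1 library per line. In Huh-7, 34.3% of the names in the 1000s and 11.7% of those in the 6000s reached 1, and the bars of the other miRNAs stand at 42.2%, 43.5% and 40.4%.

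17 members reached 100 in at least 1 library, 8 in C643, 12 in Huh-7 and 6 in ES-2. Of all listed names, 5.76% reached 100 in C643, 5.6% in ES-2, 6.14% in Huh-7 and 8.19% in any library, compared with 17 of the 1719 listed names of the class. These 17 members held 55.4% of the class in C643, 65.5% in Huh-7 and 50.0% in ES-2. Only miR-3613-5p, miR-1180-3p and miR-1307-3p were at 100 or more in every library.

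**Figure D3:**
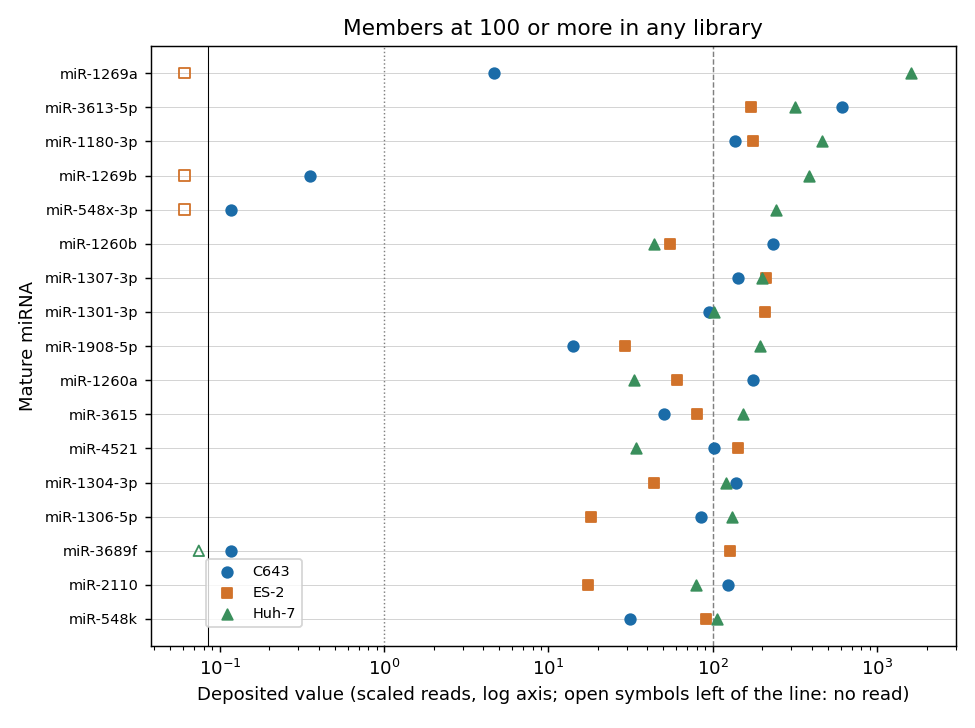
Deposited value (log axis) of the 17 members that reached 100 in any library, with a symbol for each of the 3 single libraries. Open symbols left of the solid line mark libraries with no read, the dotted line marks 1 and the dashed line 100. miR-1269a, miR-1269b and miR-548x-3p are high in Huh-7 alone and miR-3689f in ES-2 alone, whereas miR-1307-3p spans 142 to 211.

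miR-3613-5p was the highest member of C643. Its value was 615 in C643, 318 in Huh-7 and 171 in ES-2. C643 was 3.59-fold above ES-2 (exact 95% Clopper-Pearson interval of the reads 3.16 to 4.09, counting error only) and 1.94-fold above Huh-7 (1.82 to 2.07). As a share of reads it stood at 0.0642%, 0.0519% and 0.0149%, so that C643 and Huh-7 lay closer on that scale. Its hairpin lies in an intron of DLEU2, a long non-coding RNA gene that also hosts the miR-15a and miR-16-1 cluster. The partner arm miR-3613-3p was nearly absent, at 2.93 in C643, without a read in ES-2 and at 0.563 in Huh-7.

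miR-1180-3p was at 136 in C643, 465 in Huh-7 and 176 in ES-2. Huh-7 was 2.64-fold above ES-2 (2.31 to 3.02). Its hairpin lies in an intron of B9D1, which encodes a protein of the ciliary transition zone. The 5p arm ran the other way, with 27.1 in C643, 7.32 in Huh-7 and 12.5 in ES-2. The log2 difference of 5p minus 3p was -2.28 in C643 and -5.81 in Huh-7.

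On the deposited scale miR-1307-3p was the most even of the 17 high members, at 142 in C643, 200.2 in Huh-7 and 211 in ES-2. ES-2 and Huh-7 did not differ beyond counting error (1.05-fold, 0.919 to 1.21), whereas by share Huh-7 was 1.79-fold higher (1.56 to 2.05). Divided by the column sums, however, the shares were 0.0148%, 0.0327% and 0.0183%, and the highest share exceeded the lowest 2.21-fold, compared with 1.81-fold for miR-1301-3p. Its hairpin overlaps an exon of ATP5MD, a small subunit of the mitochondrial ATP synthase. miR-1301-3p, from an intron of the DNA methyltransferase gene DNMT3A, was at 95.4, 102 and 208, with ES-2 2.04-fold above Huh-7 on the deposited scale (1.74 to 2.38) but 1.08-fold by share (0.924 to 1.26), which is within counting error.

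Several high members were lowest in ES-2. miR-1306-5p stood at 84.8 in C643, 130.1 in Huh-7 and 18.0 in ES-2, a 7.21-fold difference between Huh-7 and ES-2 (4.86 to 11.2). Its hairpin lies in an exon of DGCR8, the RNA-binding partner of Drosha in the Microprocessor. miR-2110, from an exon of CCDC186, was at 123, 79.4 and 17.4, with Huh-7 4.58-fold above ES-2 (3.04 to 7.19). For miR-1304-3p the values were 138, 120 and 43.7, and Huh-7 exceeded ES-2 2.74-fold (2.10 to 3.62). All 3 were thus high in C643 and Huh-7, with ES-2 the lowest library.

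miR-1908-5p and miR-3615 were lowest in C643 and highest in Huh-7. miR-1908-5p was at 14.2, 193 and 29.2, with Huh-7 6.63-fold above ES-2 (4.86 to 9.29) and 13.6-fold above C643 (11.2 to 16.7). It overlaps an exon of FADS1, a fatty acid desaturase. miR-3615 was at 50.5, 153 and 80.5, and overlaps an exon of SLC9A3R1, a membrane scaffold protein. Going the other way, miR-4521, which overlaps no other annotated gene, was at 102 in C643, 34.1 in Huh-7 and 142 in ES-2. ES-2 was 4.16-fold above Huh-7 for miR-4521 (3.30 to 5.25), but only 2.20-fold by share.

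miR-1269a and miR-1269b, a pair reported in hepatocellular carcinoma, set Huh-7 apart. miR-1269a had 5747 reads in Huh-7, 40 in C643 and none in ES-2, with values of 1618, 4.69 and 0. Huh-7 was at least 777-fold above ES-2, computed against 3 reads in ES-2, and 345-fold above C643 (253 to 484). miR-1269b had 1364 reads in Huh-7, 3 in C643 and none in ES-2. Huh-7 was at least 184-fold above ES-2 and 1092-fold above C643 (373 to 5302). The pair made up 31.1% of the class in Huh-7, 0.144% in C643 and nothing in ES-2. The hairpins lie on different chromosomes, with miR-1269a outside other annotated genes and miR-1269b opposite an intron of ARHGAP44. The pair differs at a single base, and how reads that do not reach it were assigned is not given in the sources used here.

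A further 3 members completed the 5 largest differences toward Huh-7 from ES-2, among members at 10 or more in either. miR-548x-3p had 866 reads in Huh-7, 1 in C643 and none in ES-2, at least 117-fold above ES-2. miR-3660, whose hairpin overlaps no other gene, had 157 reads in Huh-7 and none elsewhere, at least 21.2-fold above ES-2 and at least 126-fold above C643. miR-1247-5p, from the imprinted DLK1-DIO3 region where its hairpin overlaps an exon of DIO3OS, had 117 reads in Huh-7, 4 in C643 and none in ES-2. Its value in Huh-7 was 32.9, at least 15.8-fold above ES-2 and 70.3-fold above C643 (26.7 to 262).

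The 5 largest differences toward ES-2 came from 2 places in the genome. miR-3689f had 183 reads in ES-2 (value 127), 1 in C643 and none in Huh-7, at least 150.4-fold above Huh-7. miR-3689a-5p had 108 reads (value 74.97), miR-3689b-5p 93 (64.6) and miR-3689e 90 (62.5) in ES-2, and none of these had a read elsewhere. Together the 4 sequences with seed GUGAUAU held 329 in ES-2, which was 11.5% of the class there, and 0.117 in C643. Their hairpins lie close together on chromosome 9 and overlap no other annotated gene, with miR-3689f 142 bases from miR-3689e, 511 from miR-3689b and 1219 from miR-3689a. Since the mature forms a, b and e are identical, their near equal values cannot be told apart from 1 pool of reads shared among the loci. The remaining member was miR-3152-5p, from an intron of ADAMTSL1. It had 51 reads in ES-2 (35.4) and none in Huh-7, at least 41.9-fold higher in ES-2, but 273 reads in C643, where its value was 32.0.

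Huh-7 and ES-2 stand in the same table, and 87 members were at 10 or more in either library. A difference of at least 2 on the log2(value + 1) scale, a 4-fold change, was found for 7 members toward ES-2 (8.05%) and for 40 toward Huh-7 (46.0%). Of all 390 miRNAs at 10 or more, 19.5% were 4-fold higher in ES-2 and 27.7% were 4-fold higher in Huh-7. With a pseudocount of 10 in place of 1, the counts were 5 members toward ES-2 and 9 toward Huh-7, beside 15.9% and 15.4% of all 390, and a larger pseudocount shrinks differences of low values by construction. The median log2 difference of ES-2 minus Huh-7 was -1.39 over the members and -0.54 over all 390. The ES-2 column sum was 1.89 times that of Huh-7, so the deposited scale lifts ES-2 relative to shares. With each column scaled to 1000000, all 40 members higher in Huh-7 stayed at least 4-fold higher, and 5 of the 7 higher in ES-2 did so. The exceptions were miR-4521 and miR-7974, the latter at 88.2 in ES-2 and 16.9 in Huh-7. Among the 40, 23 had no read in ES-2, the library with the fewest reads, and membership itself requires a high value in some library.

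**Figure D4:**
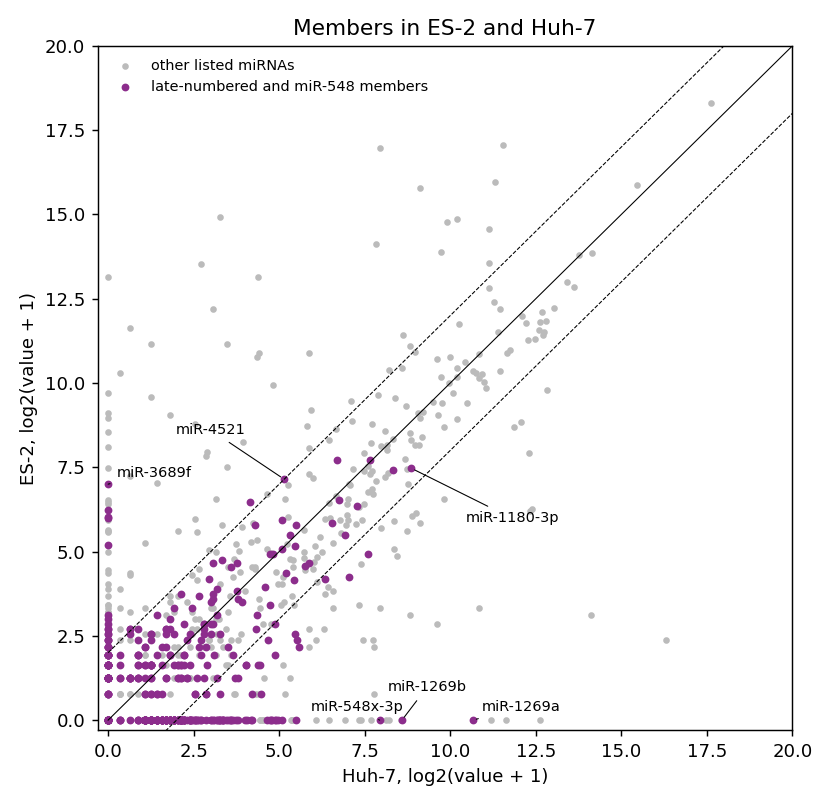
Levels in ES-2 against Huh-7 on the log2(value + 1) scale, 1 library each, for members (purple) and other listed miRNAs (grey). The solid line marks equal values and the dashed lines a 4-fold difference. 40 members at 10 or more lie past the lower line and 7 past the upper one. Among the members with no ES-2 read, miR-1269a lies farthest to the right.

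By number, the 4-fold members toward Huh-7 were 13 of 28 at 10 or more in the 1000s and 12 of 28 in the 3000s. They were 7 of 12 in the 4000s and 6 of 9 in miR-548. The 2000s and 7000s had 1 of 4 each and the 6000s 0 of 2, beside 27.7% of all 390 miRNAs. For C643 against ES-2, 65 members were at 10 or more, of which 18 were 4-fold higher in the former and 6 in the latter, compared with 15.4% and 10.8% of all 351 miRNAs. A pseudocount of 10 turned this balance, with 3 toward C643 and 4 toward ES-2. For C643 against Huh-7, 89 members were at 10 or more, with 10 higher in C643 and 31 higher in Huh-7, compared with 22.6% and 25.1% of all 399. When each column was scaled to 1000000, these became 6 and 56 of 117 members, beside 17.4% and 35.5% of all 442 miRNAs then at 10 or more, so the share of calls toward C643 moved from 24.4% to 9.68%.

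Of the 98 members at 10 or more in any library, 26 (26.5%) were so in all 3, and this share was not taken over all names. These 26 held 69.3% of the class in C643, 37.9% in Huh-7 and 62.1% in ES-2. The highest value exceeded the lowest by a median of 3.09-fold over these 26 and by 4.20-fold by share. Only 5 of them varied less than 2-fold, namely miR-3158-3p, miR-3605-3p, miR-1292-5p, miR-1307-3p and miR-3173-5p, named after their values were seen. By share, 6 of the 26 did so, and miR-1292-5p (2.36-fold) and miR-1307-3p (2.21-fold) were not among them. On the deposited scale miR-3158-3p was the most even, at 31.7 in C643, 39.1 in Huh-7 and 44.4 in ES-2. The widest was miR-1908-5p, at 13.6-fold.

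The miR-548 family held 0.0171% of reads in C643 (0.0163 to 0.0181), 0.0940% in Huh-7 (0.0901 to 0.0982) and 0.0123% in ES-2 (0.0107 to 0.0141). 13 of the 25 members reached 1 in C643, 21 in Huh-7 and 9 in ES-2. Of all 80 listed miR-548 names these were 16.25%, 26.25% and 11.25%, beside 21.4%, 26.5% and 21.3% of all 2588 listed names. Without miR-548x-3p, the share of reads in Huh-7 was 0.0542%, and it remained the highest. 3 members led by summed share. miR-548x-3p was at 0.117 in C643, without a read in ES-2 and at 244 in Huh-7. miR-548k, from an intron of PPFIA1, was at 31.3, 106 and 90.9, and made up 64.2% of the family in ES-2. ES-2 and Huh-7 did not differ beyond counting error in its deposited value (Huh-7 over ES-2 1.17-fold, 0.954 to 1.43), whereas by share Huh-7 was 2.20-fold higher (1.80 to 2.71). miR-548e-3p was at 25.3, 53.5 and 22.9.

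**Figure D5:**
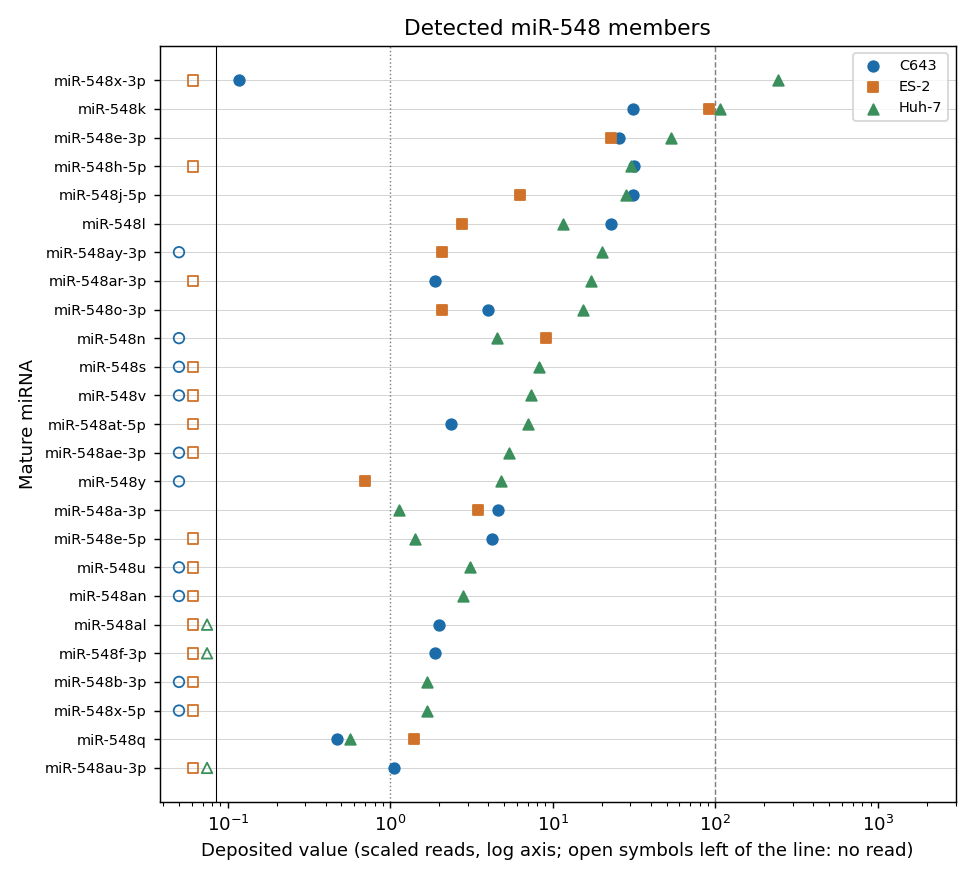
Deposited value (log axis) of the 25 detected miR-548 members in C643, Huh-7 and ES-2, 1 library each. Open symbols left of the solid line mark no read, and the dotted and dashed lines mark 1 and 100. Most members lie under 10, ES-2 has no read for 15 of them, and miR-548k and miR-548e-3p are above 20 in every library.

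Several miR-548 members were present in C643 and Huh-7 and low in ES-2. miR-548h-5p was at 31.7 in C643 and 30.4 in Huh-7, without a read in ES-2, at least 14.6-fold lower there than in Huh-7. miR-548j-5p was at 30.9 in C643, 28.2 in Huh-7 and 6.25 in ES-2. miR-548l was at 22.7, 11.5 and 2.78. miR-548ay-3p was highest in Huh-7, with 71 reads there, 3 in ES-2 and none in C643.

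Reads were spread differently over the loci of miR-548h-5p and miR-548x-3p. miR-548h-5p is listed at 5 loci, which had 52, 52, 57, 50 and 59 reads in C643 and 22, 17, 25, 22 and 22 in Huh-7, so the loci were near equal. By contrast, the Huh-7 reads of miR-548x-3p fell on chromosome 21 (846) rather than chromosome 13 (20), although RefSeq gives the same mature sequence at both. The chromosome 21 locus lies in an intron of MIR548XHG, its non-coding host gene. How reads with several matches were placed is not given in the sources used here. 27 of the 435 members had more than 1 locus, 6 of them in the miR-548 family.

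Among the 21 miR-548 members with a RefSeq sequence, a pair of short runs recurred near the 5′ end. Bases 2 to 6 read AAAGU in 5 of them (miR-548at-5p, miR-548j-5p, miR-548k, miR-548l and miR-548y), a run found in 29 of the 2281 listed names with a sequence. 5 others (miR-548ae-3p, miR-548ar-3p, miR-548f-3p, miR-548o-3p and miR-548x-3p) hold AAAACU within the first 9 bases, a run found in 15 of the 2281. miR-548j-5p and miR-548l are shown because their seeds differ from that of miR-548k, given above, in the last base alone, and miR-548o-3p as an example of the second run.
miR-548j-5p: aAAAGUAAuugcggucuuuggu
miR-548l: aAAAGUAUuugcggguuuuguc
miR-548o-3p: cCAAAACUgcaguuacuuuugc
miR-548l (chr11:94466545-94466566, minus strand) differs from miR-548k by 4 bases, written from miR-548k as C8U, A15G, C21U and U22C, the first of them in the seed. miR-548j-5p lies at chr22:26555274-26555295 on the minus strand, and miR-548o-3p at chr7:102405748-102405769 on the minus strand and at a further locus on chromosome 20.

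The members were richer in GC than the other detected miRNAs, again as a description. RefSeq gave a sequence for 393 of the 435 members, all on the chromosomes that the deposited tables name. Their median GC content was 54.5%, compared with 47.6% for the other detected miRNAs and 36.4% for the miR-548 members. A GC content of 70% or more was found in 14.0% of members and in 2.16% of the other detected miRNAs. Names of the class that stayed below 1 were alike, with a median of 54.5% and 13.7% at 70% or more. The median length was 22 bases in all these groups.

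Of the 393 members with a sequence, 50 shared a seed with another such member, in 24 groups. Sharing was not counted among the other miRNAs, and the 42 members without a sequence could not be placed. Among these 24 groups, that of 4 around miR-3689f was the largest. Pairs followed, such as miR-1269a and miR-1269b (2002 summed in Huh-7), miR-1260a and miR-1260b (408 in C643) and miR-548x-3p and miR-548ae-3p (249 in Huh-7). 24 members shared a seed with an earlier-numbered miRNA, 6 of them at 10 or more, and these are named for that reason after their values were seen. In 5 of the 6 (miR-1908-5p, miR-2682-5p, miR-548j-5p, miR-4466 and miR-3661) the earlier miRNA was at 2.08 or below in every library. miR-2682-5p, which has the seed of miR-34b-5p and miR-449c-5p, was at 78.3 in C643, 5.63 in Huh-7 and 4.17 in ES-2. The exception was miR-3129-5p, at 12.4 in Huh-7 and without a read elsewhere, whose seed is that of miR-199a-3p and miR-199b-3p. The higher of these stood at 2960 in C643, 7.32 in Huh-7 and 4664 in ES-2, so that in Huh-7 the late-numbered miRNA was above the earlier ones.

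The places of the members in the genome are given as counts with no test. Hairpins or mature arms of members mapped to 359 positions, which were compared with GENCODE v29 genes and with 298 positions of the other detected miRNAs. Introns of protein-coding genes on the same strand held 53.5% of the member positions and 40.3% of the others, and exons of protein-coding genes held 17.0% and 5.03%. For the 88 positions with a member at 10 or more, introns held 43.2% and exons 18.2%. Genes of other kinds on the same strand, such as long non-coding RNAs, held 6.69% and 33.9%. No other gene was annotated at 12.8% and 14.1%. Of the 359 member positions, 29 lay within 10000 bases of another listed hairpin on the same strand, which was not counted for the other miRNAs.

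Of 18 listed names that coincide with or resemble other small RNAs, 13 were members and 4 reached 10. Over the 1719 names of the class these shares were 25.3% and 5.70%. The 13 members held 13.9% of the class in C643, 1.95% in Huh-7 and 7.47% in ES-2. Most of this was the tRNA-like pair miR-1260a and miR-1260b. miR-1260b was at 233 in C643, 43.9 in Huh-7 and 54.8 in ES-2. miR-1260a was at 175, 33.2 and 60.4. Summed, the pair was 3.54-fold higher in C643 than in ES-2 (3.03 to 4.16) and 5.29-fold higher than in Huh-7, or 4.26-fold and 3.37-fold by share. miR-3607-3p, whose hairpin is known to coincide with a snoRNA, was at 27.7, 18.6 and 54.8, and miR-7977 at 37.6, 12.7 and 24.3. By contrast, miR-1246, which resembles U2 snRNA, had only 11, 12 and 2 reads. Overlap with an annotated snoRNA or small Cajal body RNA on the same strand in GENCODE v29 was found for 4 hairpins, those of miR-1248, miR-1291, miR-3651 and miR-6516, none of which reached 10. Whether reads of these names came from miRNA hairpins or from the other RNA was not tested.

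Of 16 listed splicing-derived miRNAs, 5 were detected and 2 reached 10, beside 25.3% and 5.70% of the 1719 names of the class. miR-1229-3p was at 13.7 in C643, 1.41 in Huh-7 and 4.86 in ES-2. miR-1228-3p was at 13.0 in Huh-7, with 46 reads, and had none in either other library. Beside the same shares of the class, 11 of 18 names with a counterpart in mouse were members and 7 reached 10. They were miR-1307-3p, miR-1306-5p, miR-1247-5p, given above, miR-1249-3p at 74.7, 35.5 and 19.4, miR-1306-3p at 18.1, 42.8 and 4.86, miR-1307-5p at 7.39, 9.01 and 25.7, and miR-3065-5p at 16.6, 4.22 and 0.

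Names from hairpins that lie opposite an earlier miRNA were detected at low values. Beside 25.3% and 5.70% of the 1719 class names, 5 of 8 such names were members and only miR-3065-5p, opposite miR-338, reached 10. It had 142 reads in C643, 15 in Huh-7 and none in ES-2, and miR-338-3p was at 13.7, 1.13 and 0 in the same libraries. miR-3591-5p, opposite miR-122, had 14 reads in Huh-7 and none elsewhere, where miR-122-5p, the hepatocyte miRNA, was at 81224 in Huh-7, 54.9 in C643 and 4.17 in ES-2. miR-3074-5p, opposite a miR-24 hairpin, had 25 reads in Huh-7 and none elsewhere, while miR-24-3p was at 11805 in C643, 2826 in Huh-7 and 4679 in ES-2. Whether the counting used strand is not given in the sources used here.

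For 230 hairpins both arms were listed and at least 1 was a member, and both arms were members in 67, the 5p arm alone in 73 and the 3p arm alone in 90. For low hairpins these counts depend on the limit of 1, since the other arm can lie just under it. Among the hairpins with a member at 100 or more, miR-3613 favoured 5p in every library, by 7.29 in C643, 7.67 in Huh-7 and 7.43 in ES-2 on the log2 scale of 5p minus 3p. miR-1301 gave no 5p read. miR-1306 favoured 5p by 2.17, 1.58 and 1.70. miR-1304 had both arms at 10 or more in each library, with 64.7, 27.3 and 29.2 for 5p. The preferred arm of miR-3613, miR-1180, miR-1307, miR-1908, miR-1304 and miR-1306 was the same in all 3 libraries, although the size of the preference varied.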

How the data were processed

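In 2 tables, the first for C643 and the second for Huh-7 and ES-2, the authors deposited a signal per miRNA locus, that is reads scaled by a library factor. The tables carry the name CPM, but the columns sum to 959302, 612015 and 1154552. Tools in the submitters' processing notes are cutadapt 1.14, Bowtie2 2.3.3, SAMtools 1.5, featureCounts 1.5.3 and edgeR 3.18.1, with build hg38. Their settings are not given in the sources used here. NEXTflex libraries were made from TRIZOL-extracted RNA.

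Each nonzero value, 100% within a tolerance of 0.001, was a whole multiple of the library's smallest value, and that step recovered the reads. Loci of the same mature name were added up. Shares carry Wilson 95% confidence intervals, and ratios exact Clopper-Pearson intervals of the reads. A library with no read was set at 3 reads for a lower bound on a fold, which corresponds to shares of 3.67e-05% in C643, 0.000138% in Huh-7 and 0.00018% in ES-2. PCR copies are not independent molecules, so that both the intervals and these floors cover counting error only. Differences between libraries were taken on the log2(value + 1) scale over miRNAs at 10 or more in either library, which understates the fold of low miRNAs, and a difference of 2 counted as 4-fold. As an alternative, an exact binomial test of the reads with Benjamini-Hochberg adjustment at 0.05 called 344 of 390 miRNAs between ES-2 and Huh-7. It compares 2 libraries, not 2 lines, takes the deposited scale as given, and is not used as support for differences of the members. Scripts ran in Python 3.11.15 with pandas 2.3.3 and scipy 1.17.1 and were tested on simulated data.

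Members and lists were chosen with earlier results of these data known. Named were the members at 100 or more, the 3 highest of each library, the 3 highest of miR-548 by summed share, the 5 largest differences in each direction between Huh-7 and ES-2, list members at 10 or more and 3 names on each side of the limit of 1. Mature sequences came from RefSeq (GRCh38.p14) by name and gene overlap from GENCODE v29. Alternatives changed the detection limit, the denominator, the summing of loci, the pseudocount, the filter, the fold and the scaling.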

Additional observations from a re-analysis of the deposited data

How the results depend on the processing

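No paired analysis was possible because there was 1 library per line and the labels give no replicate numbers. At a detection limit of 10, the members detected were 51 in C643, 73 in Huh-7 and 45 in ES-2. With more than 3 reads required, counted over all listed names of the class, 212, 307 and 124 were detected. The class share in C643, Huh-7 and ES-2 was 0.351%, 0.644% and 0.286% of 1000000, 0.513%, 1.58% and 0.345% without miR-21-5p in the denominator, 0.432%, 1.12% and 0.284% with the mean over the loci of a name, and 0.302%, 0.789% and 0.2295% without the highest member of each library. Without miR-1269a and miR-1269b, chosen after seeing the data, it was 0.726% in Huh-7. Huh-7 had the highest share and ES-2 the lowest in each of these 4 settings over all libraries. The miR-548 share was 0.0240%, 0.141% and 0.0171% without miR-21-5p, and in Huh-7 0.0754% with the mean over loci and 0.0542% without miR-548x-3p, also chosen after seeing the data. For ES-2 against Huh-7, 4-fold members are given toward ES-2 and Huh-7, with the percent of all miRNAs tested in parentheses. A pseudocount of 10 gave 5 and 9 of 87 members (15.9% and 15.4%). With each column scaled to 1000000 they were 5 and 71 of 115 (14.9% and 41.4%). Without a filter they were 23 and 95 of 391 (10.9% and 18.5%). With a filter at 100 they were 2 and 5 of 14 (24.2% and 21.2%). At least 2-fold, they were 14 and 50 (29.2% and 40.3%), and by the read test, which compares these libraries only, 17 and 54 (34.4% and 53.8%). For C643 against ES-2, a pseudocount of 10 gave 3 and 4 of 65 members (6.27% and 6.84%) and so turned the balance toward ES-2. No filter gave 58 and 34 of 316 (15.2% and 10.1%). For C643 against Huh-7, a pseudocount of 10 gave 4 and 7 of 89 members (16.8% and 13.8%). The absence of a filter gave 37 and 86 of 394 (14.1% and 17.2%). Scaling each column to 1000000 gave 6 and 56 of 117 (17.4% and 35.5%). A larger pseudocount shrinks differences of low values by construction. Counting also values listed above, 29 alternatives stayed close to the main result, 38 moved further and 2 turned the balance. Close meant within 1.5 times for counts and inside the Wilson interval for shares. ES-2 had the fewest reads, so a member at 0 there may lie up to a value of 2.08.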
